A study of Bos indicus with 5 samples.

Results

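The ampulla, the wide part of the oviduct that lies between the infundibulum and the isthmus, was examined for genes of 7 solute carrier families that move sugars, monocarboxylates, nucleosides and water-soluble vitamins across membranes. All entries of the ampulla table whose symbol begins with SLC2A, SLC5A, SLC16A, SLC19A, SLC23A, SLC28A or SLC29A followed by a number were taken, which gave 49 of 24616 genes. Of these, 13 carried an SLC2A symbol, 9 an SLC5A symbol, 14 an SLC16A symbol, 4 an SLC29A symbol, and 3 each an SLC19A, SLC23A and SLC28A symbol. One of the SLC2A entries, SLC2A4RG, is named after a transporter but encodes a nuclear regulator of the SLC2A4 gene. It was kept among the members because the choice was made by symbol alone.

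Tissue came from 5 Nelore (Bos indicus) cows, all multiparous and healthy, and each library was made from a different animal. All cows were first pre-synchronized with a prostaglandin F2 alpha analog and a GnRH agonist, given on separate days, in an order on which the labels and the methods of the study differ. Every cow then carried an intravaginal progesterone device, received estradiol benzoate when the device was placed and a prostaglandin F2 alpha analog at its removal and again later, and was induced to ovulate with a GnRH agonist. In the 2 cows of the LF/LCL group, named for a large follicle and a large corpus luteum, the device was removed 42 h before GnRH and an additional prostaglandin injection was given on the day of device placement. In the 3 cows of the SF/SCL group, named for a small follicle and a small corpus luteum, removal was at 30 h before GnRH. Tissue was collected on day 4. The age of the cows was not stated. The cows were those ranked highest in LF/LCL and lowest in SF/SCL on follicle, corpus luteum and hormone measures, so the comparison is between extremes of the 2 groups. The ampulla on the side of the corpus luteum was sampled through its whole thickness, so epithelium, stroma, muscle and vessels were all in each library.

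The SLC2A proteins (GLUT) let glucose and related sugars or polyols pass down their gradients, whereas the SLC5A proteins (SGLT and relatives) drive sugars, inositol, vitamins or anions inwards with sodium. The SLC16A family contains the proton-linked carriers of lactate and pyruvate, carriers of thyroid hormone and aromatic amino acids, and several members of less certain function. The SLC19A proteins carry folate and thiamine and the SLC23A proteins carry ascorbate. Nucleosides enter by concentrative, sodium-driven carriers (SLC28A) or by equilibrative carriers (SLC29A). Pyruvate, lactate and glucose are components of oviduct fluid on which the early embryo draws.

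Abundance is given as normalized reads, which are the reads of a gene divided by 1 size factor per library. The libraries held 13418278 to 19592174 reads, and 1 read was worth 0.777 to 1.17 normalized reads. OVGP1 and the other secretory epithelium markers summed to between 149600 and 180000 normalized reads, and 8 of 8 were measured in every library. Since reads increase with transcript length, levels of different genes are not ranked as amounts of transcript here. By the classes that the study used for mean normalized reads, 4 members were high (1000 or more), 30 medium (15 or more), 13 low, and 2, SLC5A7 and SLC16A8, had no read. No read in a library allows up to 3 reads, which is 2.33 to 3.52 normalized reads. Counting limits of this kind cover counting error only.

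The question was whether the 2 groups differed in transporter transcripts. A mean above 5 normalized reads was required for a test, and 39 of 49 members met it. With limma on log2(normalized reads + 1), 0 of the 39 had an adjusted p under 0.05 (smallest 0.289), and over all 15815 genes tested 0.0% had. An unadjusted p under 0.05 was found for 7 members (17.9%), against 11.5% of all genes tested. Of these, 3 were higher in LF/LCL (SLC28A3, SLC2A4 and SLC16A3), where the share over all genes was 5.64%. The other 4 were higher in SF/SCL (SLC2A12, SLC16A7, SLC16A10 and SLC16A11), where it was 5.86%. The groups did not overlap in 12 members (30.8%), 6 in each direction, and in 30.1% of all genes. The median log2 fold change, always LF/LCL over SF/SCL, was -0.08 over the members and 0.01 over all genes, with 16 members above 0 and 23 below. Members thus lay close to the rest of the transcriptome in these shares, and the values below describe individual genes.

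**Figure D1:**
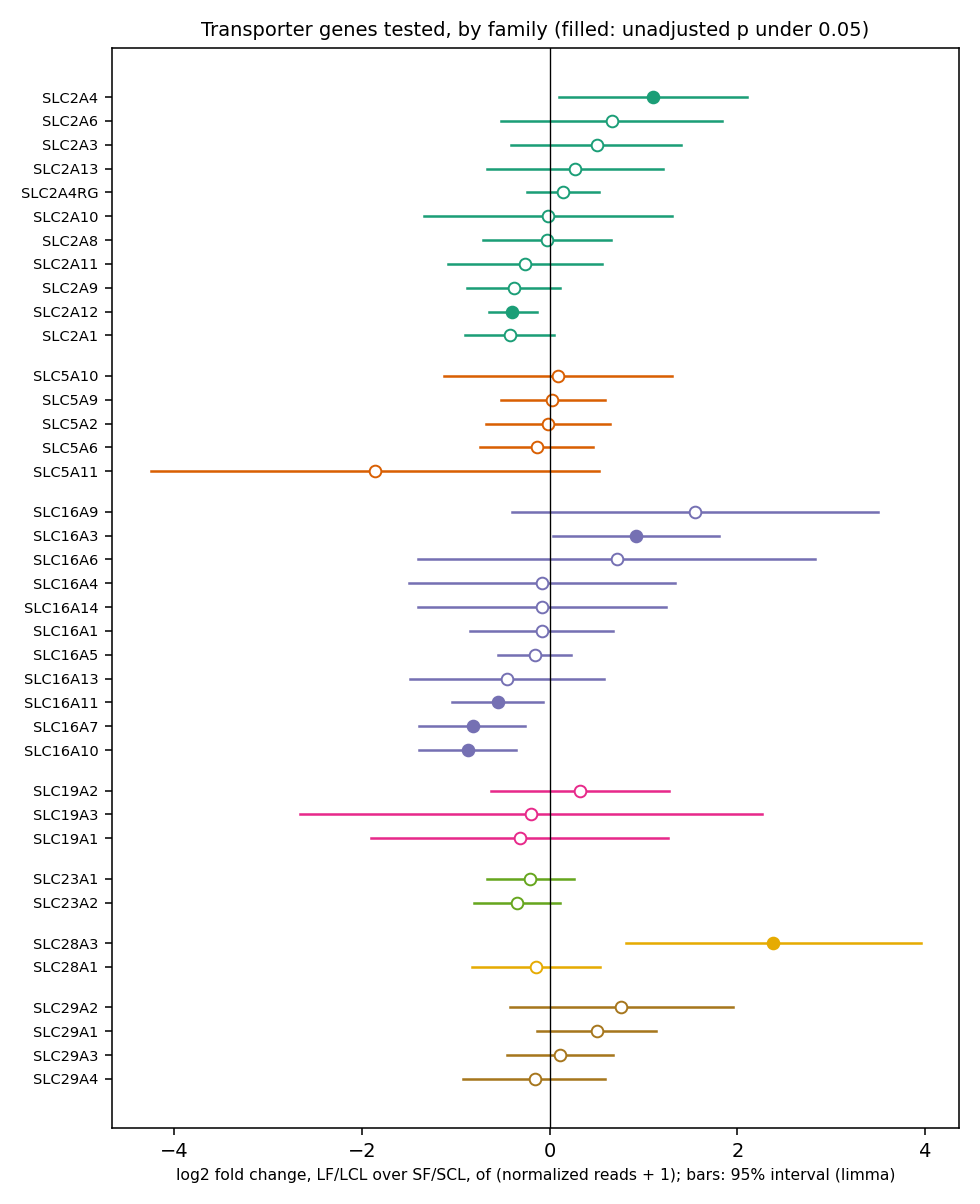
Log2 fold change (x axis, LF/LCL over SF/SCL, on the log2(normalized reads + 1) scale) of the members tested, with 1 gene of the 39 not shown, grouped and coloured by family. Points are limma estimates, bars their 95% intervals, and the 7 filled points have an unadjusted p under 0.05; SLC28A3 lies farthest to the right at 2.38, and most other intervals span 0.

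The number of calls depended on the tool. DESeq2 on the whole reads recovered from the table called 2 members, SLC28A3 (adjusted p 0.00816) and SLC16A10 (adjusted p 0.0295), and 2.89% of all genes. The edgeR exact test called only SLC28A3 (adjusted p 0.0178) and 2.12% of all genes. The edgeR quasi-likelihood test called 0 members and 0.0% of all genes, with 6 members at an unadjusted p under 0.05.

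Among the nucleoside carriers, the gene with the widest difference was SLC28A3, which encodes the concentrative carrier of both purine and pyrimidine nucleosides. LF/LCL replicates 1 and 2 had 425.7 and 874.0 normalized reads of it, against 121.6, 230.8 and 55.8 in SF/SCL replicates 1, 2 and 3. Both LF/LCL libraries lay above all SF/SCL libraries, although the highest value was 2.05 times the lowest within LF/LCL and 4.14 times within SF/SCL. The means were 649.9 ± 317.0 (SD, n = 2) and 136.1 ± 88.4 (SD, n = 3), a 4.78-fold difference of means. The log2 fold change was 2.38 ± 0.63 (SE) with a limma adjusted p of 0.307, and across the fits that each left out 1 library it ran from 1.86 to 2.90.

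The other SLC28A genes did not follow it. SLC28A1, for the pyrimidine carrier, had 78.6 and 102.6 normalized reads in LF/LCL against 98.8, 117.4 and 84.8 in SF/SCL, with a log2 fold change of -0.15 ± 0.28 (SE, limma adjusted p 0.891). SLC28A2, for the purine carrier, had 14 reads in all 5 libraries together and was not tested. SLC28A3 took 84.2% (95% Wilson interval 80.5 to 87.4) and 89.5% (87.5 to 91.2) of the SLC28A reads in LF/LCL replicates 1 and 2. In SF/SCL replicates 1, 2 and 3 it took 54.4% (47.7 to 60.9), 65.0% (60.5 to 69.2) and 39.4% (31.5 to 47.9). The share does not depend on the scaling of the libraries, and its mean was 33.9 percentage points higher in LF/LCL. An exact two-sided permutation test over the 10 ways to split the libraries gave p = 0.1, the smallest it can give, and 0.7 after adjustment over the 7 families.

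The equilibrative carriers showed no separation of the groups. SLC29A1, which encodes the main equilibrative carrier ENT1, had 4336 and 2572 normalized reads in LF/LCL against 2856, 2006 and 2293 in SF/SCL. LF/LCL replicate 1 stood above the other 4 libraries, and LF/LCL replicate 2 lay within the SF/SCL range. Its log2 fold change of 0.50 ± 0.26 (SE, limma adjusted p 0.519) was 0.12 without LF/LCL replicate 1 and 0.88 without LF/LCL replicate 2. SLC29A2, for a related carrier that also takes nucleobases, had 170.1 and 391.0 in LF/LCL against 144.5, 235.5 and 102.0 in SF/SCL, with a log2 fold change of 0.76 ± 0.48 (SE). SLC29A3, whose protein sits in intracellular membranes, had 225.2 and 320.4 normalized reads in LF/LCL against 297.4, 237.8 and 215.7 in SF/SCL, with a log2 fold change of 0.11 ± 0.23 (SE). SLC29A4, for a carrier of monoamines and adenosine, ran from 130.0 to 247.9 over all libraries. SLC29A1 took 88.9% and 74.2% of the SLC29A reads in LF/LCL against 83.3%, 73.6% and 81.9% in SF/SCL (exact permutation p = 0.9, two-sided).

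**Figure D2:**
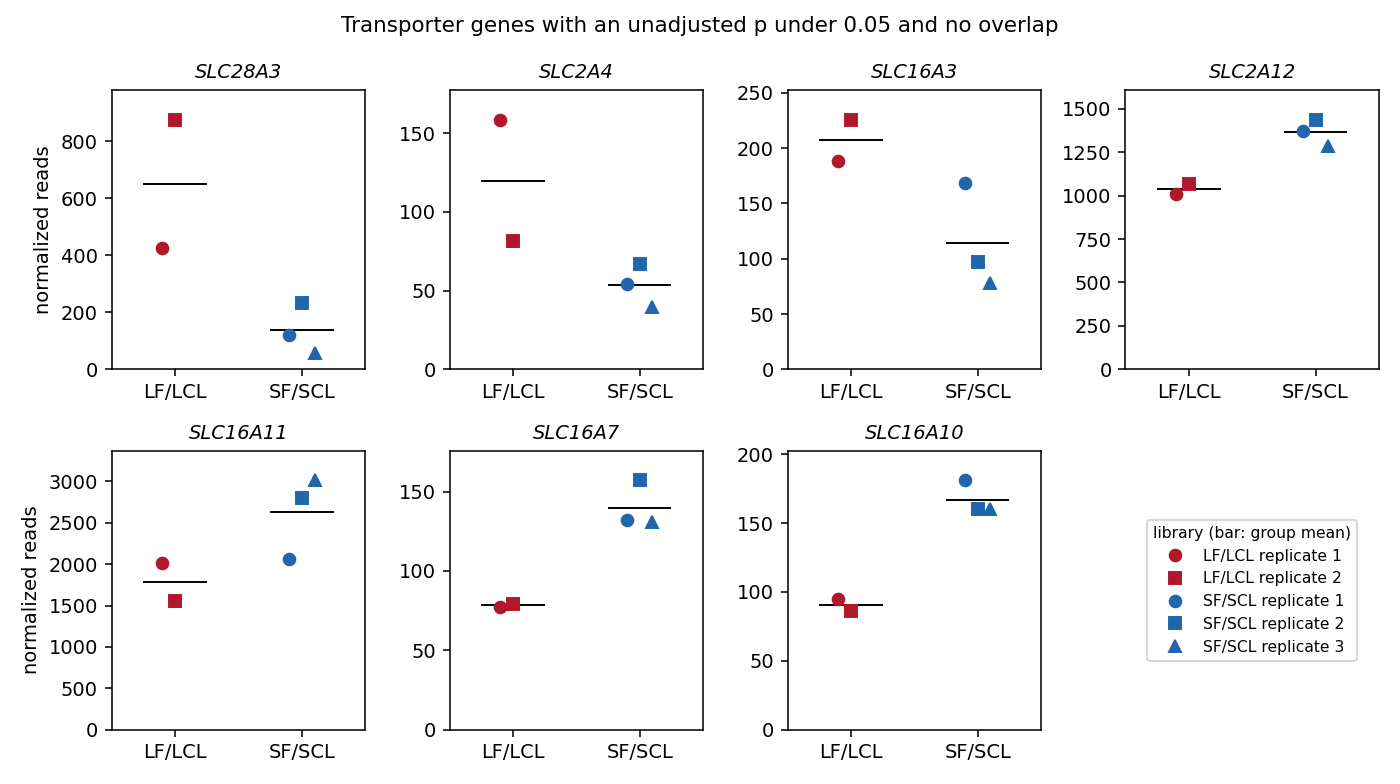
Normalized reads (y axis, linear from 0) in each library for the 7 members with an unadjusted p under 0.05 and no overlap between LF/LCL (2 libraries) and SF/SCL (3 libraries); bars mark group means. SLC28A3, SLC2A4 and SLC16A3 are higher in LF/LCL, and SLC2A12, SLC16A11, SLC16A7 and SLC16A10 are higher in SF/SCL.

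In the SLC16A family 4 of 12 genes tested had an unadjusted p under 0.05, 1 of them with higher values in LF/LCL, and in 6 the groups were fully apart. The first count is 33.3% of the family, against 11.5% of all genes tested, and the second is 6 of 12, against 30.1% of all genes. SLC16A3 (MCT4) encodes the low-affinity lactate carrier of strongly glycolytic cells. It had 188.8 and 225.5 normalized reads in LF/LCL against 168.4, 97.1 and 78.3 in SF/SCL. SF/SCL replicate 1 came close to the LF/LCL libraries, while the other 2 SF/SCL libraries were well below them. The log2 fold change was 0.92 ± 0.36 (SE, limma adjusted p 0.42).

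SLC16A7 (MCT2), the gene of the high-affinity carrier, had the opposite direction with 77.4 and 79.4 normalized reads in LF/LCL against 132.0, 157.0 and 130.9 in SF/SCL. Values within a group lay within 1.20 times of each other, and the groups were well apart. Its log2 fold change was -0.82 ± 0.23 (SE, limma adjusted p 0.314), and it ran from -0.87 to -0.74 when 1 library was left out. The study, with its own test, listed this gene by identifier among the ion transport genes enriched in SF/SCL ampulla. SLC16A1 (MCT1), the broadly expressed carrier, had 83.3 and 66.8 normalized reads in LF/LCL against 73.8, 66.1 and 100.9 in SF/SCL. Its log2 fold change was -0.08 ± 0.31 (SE), with a 95% interval from -0.85 to 0.68, which allows a change in either direction. SLC16A8 (MCT3) had no read.

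The balance of the lactate carriers was therefore examined within libraries, a description chosen after the values were seen. SLC16A3 took 54.0% and 60.7% of the reads of SLC16A1, SLC16A3 and SLC16A7 in LF/LCL against 45.0%, 30.3% and 25.3% in SF/SCL. SLC16A7 took 22.1% and 21.4% in LF/LCL against 35.3%, 49.0% and 42.2% in SF/SCL. SLC16A3 held the largest share of reads in both LF/LCL libraries and in SF/SCL replicate 1, and SLC16A7 held it in SF/SCL replicates 2 and 3. Since reads increase with transcript length, this does not rank the genes by amount of transcript. On the log2 scale the ratio of SLC16A3 to SLC16A7 reads was 1.29 and 1.51 in LF/LCL against 0.35, -0.69 and -0.74 in SF/SCL.

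**Figure D3:**
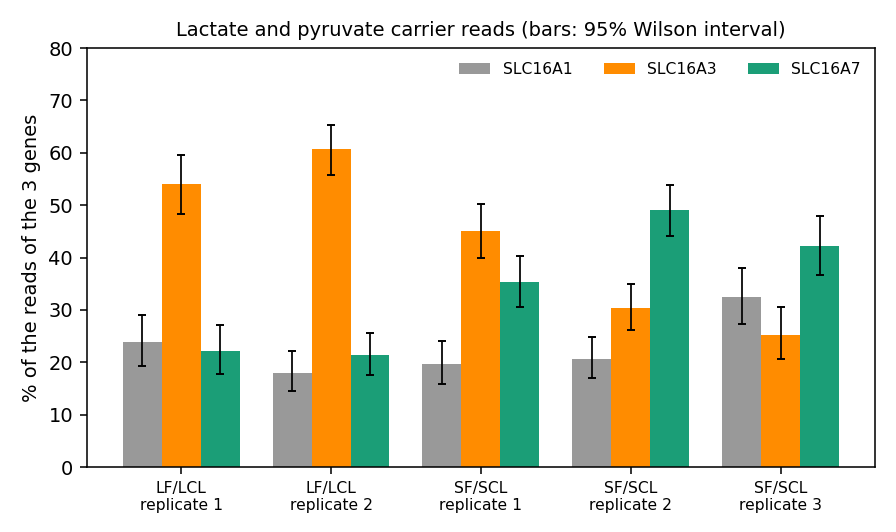
Share of the reads of SLC16A1, SLC16A3 and SLC16A7 taken by each gene (y axis, percent of the reads of the 3 genes) in the 5 libraries (x axis); error bars are 95% Wilson intervals and cover counting error only. SLC16A3 has the most reads in LF/LCL at 54.0% and 60.7%, and SLC16A7 has the most in SF/SCL replicates 2 and 3 at 49.0% and 42.2%. Shares of reads are not corrected for transcript length.

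SLC16A10 encodes a carrier of aromatic amino acids that also moves thyroid hormone. It had 95.0 and 86.1 normalized reads in LF/LCL against 180.9, 160.1 and 159.9 in SF/SCL. The 2 groups were far apart against the spread within them, with means of 90.6 ± 6.26 (SD, n = 2) and 167.0 ± 12.1 (SD, n = 3). Its log2 fold change was -0.87 ± 0.21 (SE), the limma adjusted p was 0.289, and the estimate ran from -0.94 to -0.80 when 1 library was left out.

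SLC16A11, a family member reported to take part in pyruvate transport, drew the most reads of the family, between 58.3% and 72.0% of SLC16A reads in each library. It had 2008 and 1552 normalized reads in LF/LCL against 2063, 2798 and 3010 in SF/SCL. There was no overlap, but LF/LCL replicate 1 and SF/SCL replicate 1 differed little. Its log2 fold change was -0.55 ± 0.20 (SE, limma adjusted p 0.387). In the RefSeq gene table of a Bos indicus assembly, in which 46 of the 49 members were found by symbol, SLC16A13 is the protein-coding gene next to SLC16A11, and no other 2 members lie side by side. SLC16A13 had 78.6 and 80.3 normalized reads in LF/LCL against 89.4, 188.1 and 77.3 in SF/SCL, so that SF/SCL replicate 2 stood apart and the groups overlapped. The log2 ratio of SLC16A11 to SLC16A13 ran from 3.89 to 5.28 over the libraries.

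SLC16A5 (MCT6) had 401.1 and 498.5 normalized reads in LF/LCL against 445.0, 516.0 and 544.1 in SF/SCL, which gave a log2 fold change of -0.16 ± 0.16 (SE). SLC16A9 was low, with 14.1 and 10.6 in LF/LCL against 5.20, 6.22 and 1.07 in SF/SCL. Its groups did not overlap, but its 37 reads in all gave a log2 fold change of 1.55 with a 95% interval from -0.40 to 3.50. SLC16A4, SLC16A6 and SLC16A14 had overlapping groups with log2 fold changes between -0.08 and 0.72, and SLC16A12, for a creatine carrier, had 1 read.

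Of the 11 SLC2A genes tested, 2 had an unadjusted p under 0.05, in opposite directions (18.2%, against 11.5% of all genes). SLC2A4 encodes GLUT4, the insulin-responsive glucose carrier of muscle and fat. It had 158.3 and 81.3 normalized reads in LF/LCL against 54.1, 66.8 and 39.7 in SF/SCL. LF/LCL replicate 1 was highest by a wide margin, and LF/LCL replicate 2 lay nearer to SF/SCL. The log2 fold change was 1.10 ± 0.41 (SE, limma adjusted p 0.402). It was 0.62 without LF/LCL replicate 1 and 1.58 without LF/LCL replicate 2. SLC2A4RG had 585.2 and 642.7 normalized reads in LF/LCL against 506.3, 512.9 and 656.8 in SF/SCL, with overlapping groups.

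SLC2A12 encodes GLUT12, a further glucose carrier. Its values were 1007 and 1069 normalized reads in LF/LCL against 1374, 1436 and 1288 in SF/SCL, with little spread within either group. The difference was small, with SF/SCL means 1.32 times those of LF/LCL, and the log2 fold change was -0.40 ± 0.10 (SE, limma adjusted p 0.302). SLC2A1, the gene of the widespread glucose carrier GLUT1, had 1433 and 2087 normalized reads in LF/LCL against 2012, 2350 and 2638 in SF/SCL. The groups overlapped by a single pair of libraries, and the log2 fold change was -0.42 ± 0.20 (SE, limma adjusted p 0.477). It was -0.15 without LF/LCL replicate 1 and -0.69 without LF/LCL replicate 2. SLC2A1 took 40.9% and 51.6% of the reads of the 12 GLUT genes in LF/LCL against 46.2%, 51.6% and 52.4% in SF/SCL (exact permutation p = 0.6, two-sided).

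SLC2A3, the high-affinity carrier GLUT3, had 227.5 and 107.4 normalized reads in LF/LCL against 101.9, 97.9 and 135.2 in SF/SCL, again with LF/LCL replicate 1 above the rest. SLC2A9, for a urate carrier, had 125.5 and 110.3 in LF/LCL against 151.8, 154.7 and 154.5 in SF/SCL, with no overlap and a log2 fold change of -0.38 ± 0.20 (SE). SLC2A6 also had groups that did not overlap, at 17.6 and 20.3 in LF/LCL against 11.4, 14.0 and 9.66 in SF/SCL. SLC2A8, SLC2A10, SLC2A11 and SLC2A13, the last for a proton-linked myo-inositol carrier, had overlapping groups and log2 fold changes between -0.26 and 0.27. SLC2A2 and SLC2A5, for the GLUT2 and the fructose carrier, had 3 and 17 reads in all 5 libraries and were not tested.

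In the SLC5A family 0 of 5 genes tested had an unadjusted p under 0.05 with limma, and the 5 adjusted p were 0.527 or higher. SLC5A2, best known as the renal glucose carrier SGLT2, took the most reads with 336.6 and 243.9 normalized reads in LF/LCL against 253.7, 246.4 and 394.9 in SF/SCL. SLC5A6, for the carrier of biotin and pantothenate, had 255.7 and 156.8 in LF/LCL against 231.9, 221.5 and 211.4 in SF/SCL. The groups overlapped in both genes, with log2 fold changes of -0.02 ± 0.27 (SE) and -0.14 ± 0.25 (SE). SLC5A9, for a mannose and glucose carrier, ran from 149.2 to 202.3 over the libraries, and SLC5A10 from 12.9 to 23.2. SLC5A11, for an inositol carrier, had 0 and 3.87 normalized reads in LF/LCL against 12.5, 6.22 and 4.29 in SF/SCL, from 28 reads in all. SLC5A4, SLC5A5, SLC5A7 and SLC5A12, which include the iodide carrier (SLC5A5) and the choline carrier (SLC5A7), had 14, 8, 0 and 2 reads.

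Of the vitamin carriers, the folate and thiamine genes varied widely between cows of a group. SLC19A1, the reduced folate carrier, had 114.9 and 159.7 normalized reads in LF/LCL against 68.6, 249.5 and 284.4 in SF/SCL. SLC19A3, a thiamine carrier, had 50.4 and 106.5 in LF/LCL against 20.8, 167.1 and 169.6 in SF/SCL. In both genes SF/SCL replicate 1 was the lowest library and SF/SCL replicate 3 the highest, with LF/LCL between them, so that the SF/SCL libraries spanned 4.14-fold and 8.15-fold. The order of the 5 libraries was the same in the 2 genes. Their log2 fold changes were -0.32 ± 0.64 (SE) and -0.20 ± 0.99 (SE), and without SF/SCL replicate 1 they were -0.97 and -1.19. SLC19A2, the other thiamine carrier, had 80.9 and 68.7 in LF/LCL against 65.5, 80.8 and 39.7 in SF/SCL, and SF/SCL replicate 1 did not stand apart there.

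The ascorbate carriers had higher values in 2 of the 3 SF/SCL libraries. SLC23A2 had 557.1 and 526.6 normalized reads in LF/LCL against 815.1, 736.8 and 547.3 in SF/SCL, with a log2 fold change of -0.35 ± 0.19 (SE, limma adjusted p 0.542). SLC23A1 had 446.8 and 510.1 in LF/LCL against 573.9, 655.9 and 445.4 in SF/SCL, with a log2 fold change of -0.21 ± 0.19 (SE). In both genes SF/SCL replicate 3 lay within or below the LF/LCL range. SLC23A3, of less certain function, had 20 reads in all and was not tested.

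**Figure D4:**
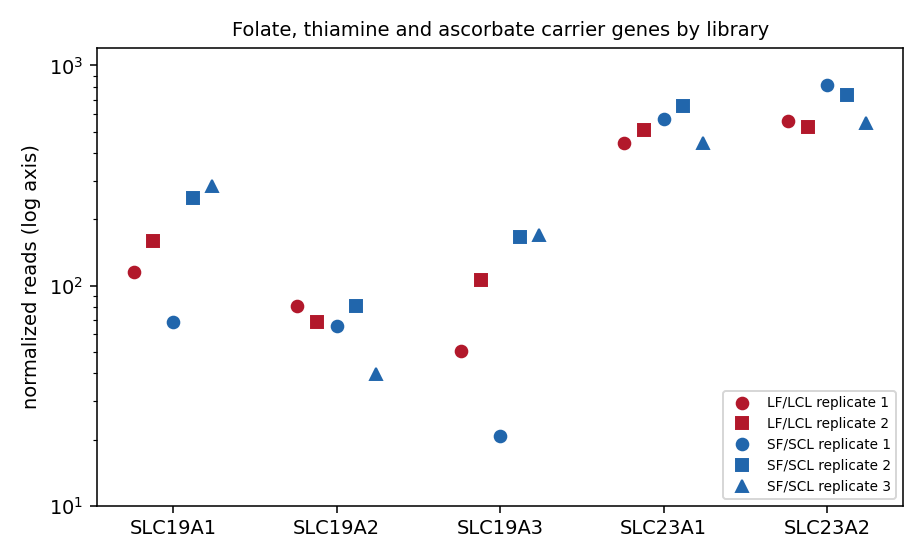
Normalized reads (y axis, log axis) of the folate and thiamine carrier genes SLC19A1, SLC19A2 and SLC19A3 and the ascorbate carrier genes SLC23A1 and SLC23A2, with 1 point per library. SF/SCL replicate 1 is lowest for SLC19A1 (68.6) and SLC19A3 (20.8) and highest for SLC23A2 (815.1).

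Spread between cows of a group was wide for some of the transporters. Among the 30 members with a mean above 50 normalized reads, the highest SF/SCL library exceeded the lowest by more than 2-fold in 8 (26.7%), against 10.6% of the 13125 genes with such a mean and a read in every library. In LF/LCL this was so in 4 members (13.3%), against 6.25%. These shares are descriptions and were not tested. The members and all genes were not matched for abundance, on which the spread from counting depends.

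Other genes of the same routes were read from a list of 57 that comprised chaperones of the monocarboxylate carriers and enzymes, receptors or regulators that act on the transported substances. Of these, 53 were matched by symbol, and INSR, ADK, NT5E and GSTO1 were not analysed here. Since some symbols have 2 entries, they gave 56 entries, of which 53 were tested. With limma 0 of the 53 had an adjusted p under 0.05, and 8 (15.1%) had an unadjusted p under 0.05, against 11.5% of all genes, 5 of them with higher values in LF/LCL and the other 3 in SF/SCL. Without LF/LCL replicate 2, which leaves 1 library in that group, 3 had one.

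The smallest p of the list belonged to TBC1D4, whose protein holds GLUT4 inside the cell until insulin signals. It had 261.5 and 265.2 normalized reads in LF/LCL against 568.7, 549.5 and 728.7 in SF/SCL, which gave a log2 fold change of -1.21 ± 0.17 (SE, limma adjusted p 0.178). Its direction was thus the opposite of that of SLC2A4, and every SF/SCL value exceeded every LF/LCL value by a wide margin. TXNIP, for a protein that limits glucose uptake, had 26760 and 28200 in LF/LCL against 22840, 26900 and 49560 in SF/SCL, with SF/SCL replicate 3 apart from the rest and a log2 fold change of -0.18 ± 0.33 (SE).

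FOLR1, the folate receptor alpha gene, has 2 entries. ENSBTAG00000038532 had 797.5 and 1172 normalized reads in LF/LCL against 70.7, 282.1 and 3.22 in SF/SCL. ENSBTAG00000021007 had 31.7 and 62.0 in LF/LCL against 3.12, 4.66 and 1.07 in SF/SCL, with at most 64 reads in any library. In both entries the LF/LCL libraries lay above all SF/SCL libraries, and SF/SCL replicate 3 was lowest. The log2 fold changes were 4.46 ± 1.68 (SE, limma adjusted p 0.414) and 3.64 ± 0.71 (SE, limma adjusted p 0.222). In SF/SCL replicates 1, 2 and 3 the first entry had 68, 363 and 3 reads, an 87.6-fold span of normalized reads. The second entry had 3, 6 and 1 reads there. Both fold changes thus rest in part on values near the counting limit. How reads divide between entries of 1 symbol is uncertain. On the recovered reads DESeq2 called TBC1D4 (adjusted p 5.09e-06) and the second FOLR1 entry (adjusted p 0.00108), the edgeR exact test called the same 2 entries (adjusted p 0.000131 and 0.000107), and neither called any other entry of the list. The edgeR quasi-likelihood test called 0.

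Of the lactate and pyruvate genes, LDHB, a lactate dehydrogenase subunit, had 1501 and 1170 normalized reads in LF/LCL against 1867, 1805 and 1577 in SF/SCL, with a log2 fold change of -0.40 ± 0.15 (SE, limma adjusted p 0.396). LDHA, the other main subunit, had a log2 fold change of 0.03 ± 0.20 (SE). BSG and EMB, whose proteins bring monocarboxylate carriers to the cell surface, had log2 fold changes of 0.26 ± 0.24 (SE) and -0.31 ± 0.19 (SE), with overlapping groups in both. The other entries with an unadjusted p under 0.05 were the nucleoside genes TK1 (log2 fold change 0.79 ± 0.25, SE) and CDA (0.68 ± 0.24), the inositol gene IMPA1 (0.33 ± 0.10) and the choline kinase gene CHKA (-0.81 ± 0.29). TK1 encodes thymidine kinase of dividing cells and CDA the cytidine deaminase, both of which act on nucleosides after uptake.

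Marker lists of the cell types in the ampulla were set beside the transporters. The lists were chosen with earlier results of these data known, so their counts are descriptions only. The study had already listed PLN and SNTN, which are in the muscle and ciliated lists, among its differing ampulla genes. It had also listed CD3E, IL2RG and CD52 of the immune list, KRT19 of the secretory list and KDR of the endothelial list. Smooth muscle markers (7 of 8 listed were matched, and all 7 were tested) summed to 81590 and 39520 normalized reads in LF/LCL and from 11070 to 27600 in SF/SCL. All 7 had a log2 fold change above 0, the median was 1.47, and 6 had an unadjusted limma p under 0.05 (11.5% of all genes). Ciliated cell markers (7 of 8 matched) summed to 22160 and 26550 in LF/LCL and from 32100 to 36170 in SF/SCL. In each of the 7 every SF/SCL value lay above both LF/LCL values (15.1% of all genes), and the median log2 fold change was -0.56. In whole tissue, fewer cells of a type and less RNA per cell cannot be told apart.

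The order of the 5 libraries by SLC2A4 was the order by the summed smooth muscle markers, and so was that by SLC16A9, while 2.02% of all genes tested had that order. For SLC2A12 and SLC16A7 the order was that of the summed ciliated cell markers, which 1.69% of all genes had. In SLC2A4, SLC16A9, SLC2A12 and SLC16A7 the groups were already apart, in the direction of the matching sum, which fixes part of the order. The shares over all genes include genes whose groups overlap or differ the other way. Both orders place the groups apart, so every gene with either order is among the genes apart in that direction. Those were 2371 genes with LF/LCL higher and 2394 with SF/SCL higher, of 15815 tested. Among them the same order is much more frequent than 2.02% and 1.69%, which make the matches look rarer than they are. Of the members, 6 were apart in each direction, and 2 of each 6 had the matching order. The search covered all members tested, 9 lists and both directions, and gave other matches too. SLC5A2 had the endothelial order (1.21% of all genes), and SLC5A9 and SLC2A13 its reverse (1.19%). SLC19A2 had the reverse of the mesothelial order (0.967%) and SLC28A1 that of the stromal order (0.79%). For SLC28A3, SLC16A3, SLC16A10 and SLC16A11 the order matched that of none of the 9 lists, nor its reverse. SLC28A3 nevertheless had the smooth muscle order with only the LF/LCL libraries exchanged. In SLC28A3, SLC16A3, SLC16A10 and SLC16A11 the groups were apart too, as they were in the smooth muscle, immune and ciliated sums. These matches were found after the values were seen and are descriptions over 5 libraries. Several rest on small gaps or few reads, where counting noise alone could change the order. SLC16A7 had 132.0 and 130.9 normalized reads in SF/SCL replicates 1 and 3. SLC5A2 had 243.9 in LF/LCL replicate 2 and 246.4 in SF/SCL replicate 2. SLC16A9 had 5, 8 and 1 reads in SF/SCL replicates 1, 2 and 3. The part of muscle or ciliated cells in the transporter values was not tested.

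**Figure D5:**
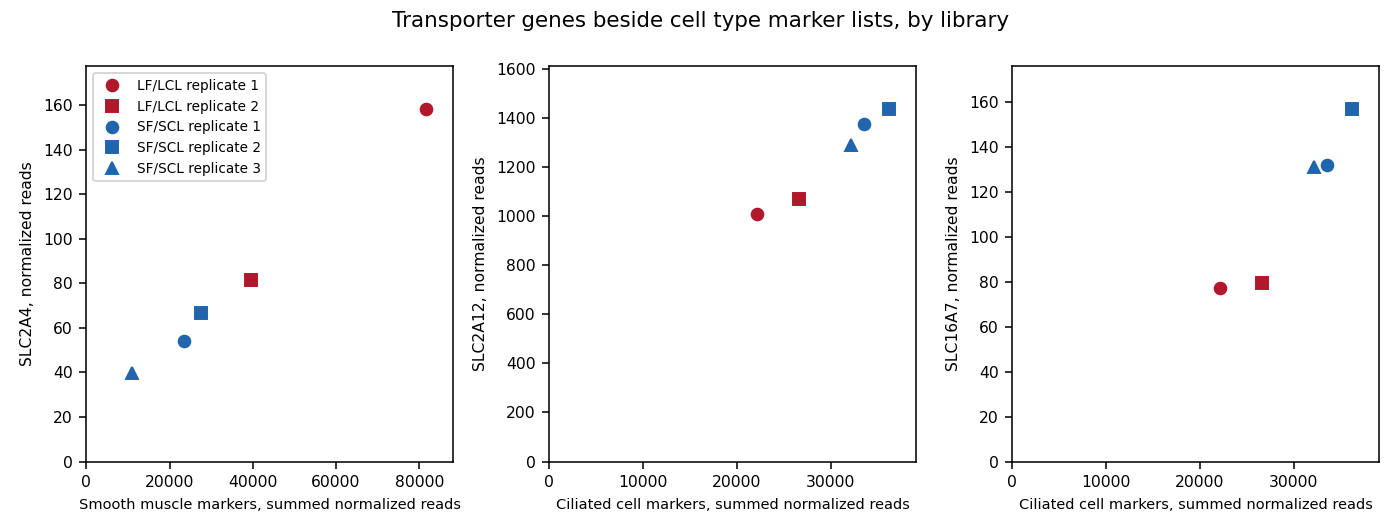
Normalized reads of SLC2A4 against the summed smooth muscle markers, and of SLC2A12 and SLC16A7 against the summed ciliated cell markers (all axes linear from 0, in normalized reads), with 1 point per library. In each panel the libraries fall in the same order on both axes, and LF/LCL lies apart from SF/SCL on both. The pairs were taken from those whose order matched, after the values were seen, so the match is no test.

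Of the other lists, fat cell markers were near 0 apart from LPL, which other cells also express. ADIPOQ, the defining fat cell gene, had 9.38 and 2.90 normalized reads in LF/LCL and at most 3.12 in SF/SCL. Red blood cell markers summed to 527.7 and 90.0 in LF/LCL against 32.2, 257.2 and 41.9 in SF/SCL, and ALAS2 had no read. Immune cell markers summed to 1665 and 2073 in LF/LCL and from 1138 to 1622 in SF/SCL, with no overlap (6 of 8 with a log2 fold change above 0, median 0.39). Of the 8, 4 had an unadjusted limma p under 0.05 (11.5% of all genes), and in 5 the groups were apart (30.1% of all genes). CD68 was among the 5 but was higher in SF/SCL, with a log2 fold change of -0.70 ± 0.48 (SE). Endothelial, mesothelial and stromal marker sums overlapped between the groups, with median log2 fold changes of 0.19, -0.52 and 0.59. The sum of the secretory epithelium list also overlapped, but most of it was OVGP1 (117200 to 147200 normalized reads), and its genes differed in direction. Whether each gene of the list marks secretory cells alone was not tested. In 4 of the 8 the groups were apart (30.1% of all genes), and 3 had an unadjusted limma p under 0.05 (11.5% of all genes). The log2 fold changes of these 3 were 0.62 ± 0.15 (SE) for PAX8, 0.40 ± 0.16 for EPCAM and -0.81 ± 0.15 for KRT19. Their part in the transporter values was not tested either.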

How the data were processed

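RNA of the ampulla of 5 cows was measured by polyA RNA sequencing, with 2 LF/LCL libraries and 3 SF/SCL libraries per the labels. The authors trimmed read pairs with seqyClean, aligned them with TopHat2 (2.0.8) and Bowtie2 (2.1.0) to the masked Bos taurus UMD assembly, counted uniquely mapped reads with HTSeq (0.5.4p2) and divided them by DESeq (1.12.1) size factors. Use of strand in counting was not stated. One further LF/LCL library was dropped by the authors because its library was poor and gave few reads, and it is not analysed here. The deposited unit is thus a normalized signal, written to 3 decimals. Near-identical, overlapping or antisense genes can lose or share reads. The reference is Bos taurus, and the cows are Bos indicus.

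Here every nonzero deposited value was a whole multiple of 1 step per library (100.0% within 0.01 reads and the rounding), so whole reads were recovered. The main test was limma (3.58.1) on log2(value + 1), with trend and robust estimation, over genes with a mean above 5 (15815 genes), two-sided, with Benjamini-Hochberg adjustment at 0.05. Fold changes of low genes are understated on this scale. edgeR (4.0.16) and DESeq2 (1.42.0) on the recovered reads were alternatives, as were limma-voom, other pseudocounts, filters and scalings, and fits without each library. Scripts were tested on simulated data. Members given with each library's value had an unadjusted p under 0.05 without overlap, a call by a count test, or 1 of the 2 highest means of a family; others are given by choice after their values were seen. SLC2A4RG was left out of the family shares. The members and lists were chosen with earlier results of these data known. Libraries of 1 group differed by more than counting noise, so none was counted as a repeat. The values of 1 member are not reported here, but it is kept in the counts.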

Additional observations from a re-analysis of the deposited data

How the results depend on the processing

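The 0 members with an adjusted p under 0.05 became 2 with DESeq2 (SLC28A3 and SLC16A10) and 1 with the edgeR exact test (SLC28A3), and stayed 0 under the other 15 alternatives, the threshold of 0.1 and each left-out library included. The cause was not tested. Without each library in turn the members at an unadjusted p numbered from 5 to 8, the related genes of the same routes from 3 (without LF/LCL replicate 2) to 9, members without overlap from 15 to 22 (22 and 21 without LF/LCL replicates 1 and 2, where fewer libraries have to be apart; the share over all genes then rose to 56.9% and 57.1%), and the median log2 fold change of the members from -0.139 to 0.014. With 1 LF/LCL library the fit assumes that it varies like the SF/SCL libraries. The difference in the share of the leading gene, in percentage points, was -3.81 for SLC2A (-9.15 to 1.53 without each library), 0.211 for SLC5A (-2.64 to 5.32), -2.30 for SLC23A (-4.77 to 0.163) and 1.97 for SLC29A (-5.34 to 9.29). Over the named members 276 of 288 other estimates kept direction and call, 3 gained a call, and 9 changed sign, all without 1 library: SLC5A6 ran from -0.50 to 0.21, SLC5A2 from -0.25 to 0.21, SLC28A1 from -0.34 to 0.04, SLC19A3 from -1.19 to 0.33, SLC19A1 from -0.97 to 0.05 and SLC29A3 from -0.14 to 0.37. Of the 7 members at an unadjusted p under 0.05, SLC16A10 and SLC16A7 kept it in 5 of 5 fits without 1 library, SLC28A3 and SLC2A12 in 4, SLC2A4 and SLC16A11 in 2, and SLC16A3 in 1. No paired analysis was possible because the cows of the groups differ and the labels pair none of them. Members with under about 50 reads are limited by depth.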
